A study of Mus musculus with 12 samples.

Results

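Nitric oxide and cGMP signalling was read from 10 genes in mouse thoracic aorta: the nitric oxide synthases Nos1, Nos2 and Nos3, their modulators Ddah1, Ddah2 and Cav1, the soluble guanylate cyclase subunits Gucy1a3 and Gucy1b3, the kinase Prkg1 and the phosphodiesterase Pde5a. They were chosen by gene symbol from the 27933 genes of the count table, and all 10 were among the 14621 genes with enough reads to be tested. Nitric oxide is made from arginine in the endothelium and diffuses into the smooth muscle below. There it binds soluble guanylate cyclase, which makes cyclic GMP. Cyclic GMP activates protein kinase G, which relaxes the muscle, and phosphodiesterases degrade it.

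The mice were C57BL/6J, aged 8 months when the aortas were taken, and had breathed nicotine vapor or room air over 12 weeks. The 4 groups of 3 libraries were alpha7-nAChR knockout with nicotine (libraries 3, 4 and 5), alpha7-nAChR knockout with air (1, 2 and 7), wild type with nicotine (6, 11 and 12) and wild type with air (8, 9 and 10). They are called KO nicotine, KO air, WT nicotine and WT air below. The alpha7 receptor is the nicotinic acetylcholine receptor subunit encoded by Chrna7, and the series asks whether it mediates the cardiopulmonary effects of inhaled nicotine. Each library is a bulk RNA preparation of a whole vessel wall, described as cleaned of fat, though fat cell transcripts remained, as given below. Fewer cells of a type and less RNA per cell therefore cannot be told apart.

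Library totals ran from 10240031 to 12628323 counts. Chrna7 had 8 to 28 counts in the libraries labelled KO and 9 to 37 in those labelled WT, so its reads did not separate the genotypes; KO and WT below mean the labels. The sources used here do not say which part of the gene was deleted. The 16 smooth muscle markers had summed levels of 30318 to 61033 CPM (counts scaled to the library size by the TMM method), with most counts in Myh11, Acta2 and Tagln. The 18 endothelial markers, with most counts in Ptprb, Pecam1 and Vwf, summed to 1762 to 2801 CPM, so both cell types that carry the pathway were present in every library. Fat cell transcripts were present in every library too. The 14 adipocyte markers, highest for Fabp4, Lpl and Pnpla2, summed to 2002 to 10421 CPM. The 6 brown fat markers, highest for Ucp1, Cidea and Cox8b, summed to 300 to 1992 CPM. The part of brown fat content in the values below was not tested. Skeletal muscle markers were highest in library KO nicotine 3, where the 13 summed to 237 CPM; the lowest KO nicotine library had 12.0 CPM, and the other groups had 14.2 to 35.2 CPM (KO air), 13.1 to 55.9 CPM (WT nicotine) and 12.7 to 17.0 CPM (WT air). Of the 12 of them tested, 11 had a fold change above 0 for nicotine in KO (median log2 fold change 2.29) and 10 in WT (median 0.86). At an unadjusted p under 0.05 (edgeR) there were 8 in KO (66.7%, against 4.58% of all tested genes) and 2 in WT (16.7%, against 9.84%). In WT, 5 had every nicotine library above every air library, as had 7.13% of all tested genes. edgeR called none, DESeq2 called 2, Myh4 and Atp2a1, for nicotine averaged, and the part of skeletal muscle content in the nicotine effects below was not tested. No library number is shared between groups, and the labels do not say that each library is a separate mouse, so p-values reflect how far libraries differ, which may in part be technical.

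The result common to the 10 genes is that none was called in any of 7 comparisons by edgeR's quasi-likelihood test at a Benjamini-Hochberg adjusted p under 0.05 over all tested genes. The share of all tested genes called was 0% for nicotine in KO, 0.0205% for nicotine in WT and 0% for the difference between these effects (the interaction). It was 0.00684% for KO against WT in nicotine, 0% for KO against WT in air, 0% for nicotine averaged over genotypes and 0% for KO averaged over exposures. With so few calls anywhere, a count of 0 among 10 genes says little about these genes in particular. Over the 70 gene and comparison pairs, 6 had an unadjusted p under 0.05: 2 for nicotine in KO, where 4.58% of all tested genes had one, 1 for the interaction (4.43%), 1 for KO against WT in nicotine (8.34%) and 2 for nicotine averaged (10.9%). There were 0 for nicotine in WT (9.84%), for KO against WT in air (4.36%) and for KO averaged (8.41%). None was called by DESeq2 or by limma voom, which gave the same counts at an unadjusted p under 0.05, except that voom gave 1 for nicotine in KO. Over all tested genes, the standard error of the log2 fold change had a median of 0.22 for nicotine in WT, 0.16 for the average over genotypes and 0.31 for the interaction, which sets the size of change that 3 libraries a group could resolve.

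**Figure D1:**
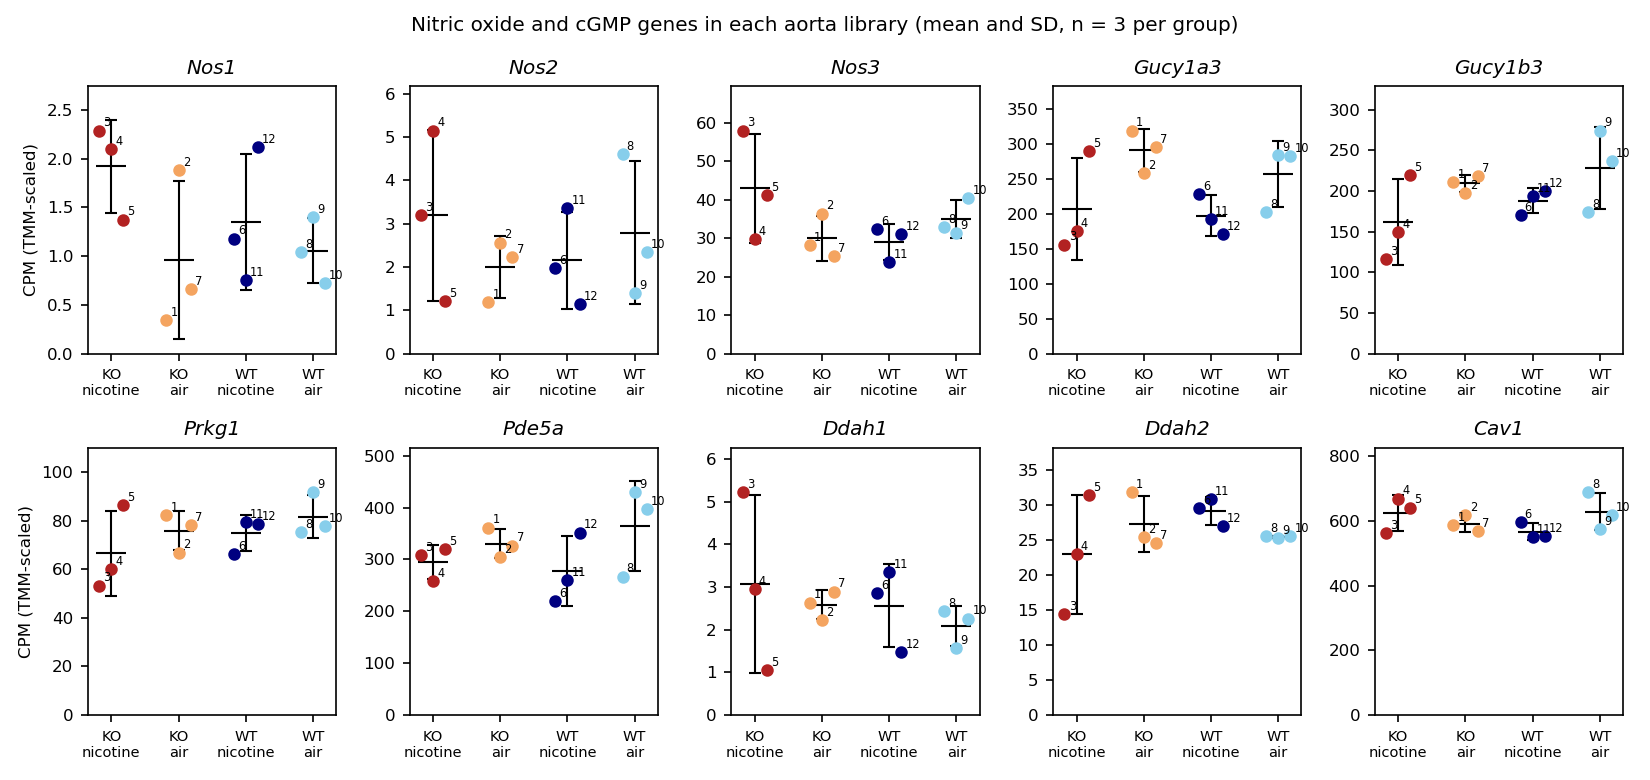
CPM (y axis, from 0 in each panel) of each of the 10 genes in each of 12 libraries, by group (x axis), with the label number beside each point and the mean and SD in black. Among groups that share a genotype or an exposure, Ddah2 in WT nicotine against WT air is the single pair whose libraries do not overlap.

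Levels spanned a wide range. Per kilobase of exon, on the GENCODE annotation of GRCm38, the mean level over the 12 libraries was 175 ± 13.3 CPM per kb for Cav1 (SD, n = 12), which encodes the main coat protein of caveolae. Gucy1b3 followed at 50.1 CPM per kb, then Gucy1a3 at 34.1, Pde5a at 32.2, Ddah2 at 16.4, Nos3 at 8.28 and Prkg1 at 6.88 CPM per kb. Ddah1, Nos2 and Nos1 came last at 0.647, 0.574 and 0.119 CPM per kb. The lengths are of all annotated exons of a gene, whether or not the aorta uses them. In this order Gucy1a3 exceeded Pde5a in 8 of 12 libraries, Nos3 exceeded Prkg1 in 8 of 12 and Ddah1 exceeded Nos2 in 8 of 12, so these 3 pairs of neighbours were not separated beyond their spread. Ddah2 exceeded Nos3 in 11 of 12 libraries and Gucy1b3 exceeded Gucy1a3 in 12 of 12, with ranges over the libraries that overlapped; the ranges of the other neighbours in the order did not overlap. The coefficient of variation of the CPM over the 12 libraries ran from 7.58% for Cav1 to 52.6% for Nos2.

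Among the synthases, Nos3, the endothelial enzyme, had the highest level per kilobase and the only comparisons with an unadjusted p under 0.05. Nos3 had 58.0, 29.8 and 41.2 CPM in KO nicotine, against 28.2, 36.4 and 25.3 CPM in KO air. In WT it had 32.3, 23.7 and 31.0 CPM with nicotine, against 32.9, 31.4 and 40.5 CPM with air. The KO nicotine group held both the highest library of all 12 and one, library 4, that lay inside the KO air range, so the groups overlapped.

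The Nos3 log2 fold change was 0.52 ± 0.22 (SE) for nicotine in KO (95% interval 0.039 to 1.0, unadjusted p = 0.0362, adjusted p = 0.878, edgeR). In WT it was -0.27 ± 0.22 (adjusted p = 0.726, edgeR), and was -0.13 without WT nicotine library 11 and -0.14 without WT air library 10. The difference between these effects was 0.79 ± 0.32 (unadjusted p = 0.0266, adjusted p = 0.999, edgeR). Between genotypes, Nos3 differed by 0.57 ± 0.22 in nicotine (unadjusted p = 0.0246, adjusted p = 0.500, edgeR) and by -0.22 ± 0.22 in air (adjusted p = 0.995, edgeR). None of these passed, and library KO nicotine 3 carried much of the size. Without that library the nicotine effect in KO was 0.25, the interaction 0.52 and the genotype difference in nicotine 0.30. Without KO nicotine library 4 they were larger, at 0.73, 0.996 and 0.77.

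2 measurements stood beside the Nos3 values. Of 18 endothelial markers, 15 had a fold change above 0 for nicotine in KO (median log2 fold change 0.24, none called) and 14 for nicotine in WT (median 0.17, none called), where 51.5% of all tested genes were above 0 in KO and 49.4% in WT. Their summed level was 2335 to 2743 CPM in KO nicotine, 1956 to 2385 CPM in KO air, 1762 to 2801 CPM in WT nicotine and 1974 to 2236 CPM in WT air, and none of the 18 was at 0. Relative to the mean log2 CPM of these markers, Nos3 lay at -0.50 ± 0.43 in KO nicotine and -0.77 ± 0.11 in KO air, and at -0.87 ± 0.41 in WT nicotine and -0.38 ± 0.23 in WT air (log2, SD, n = 3 each). The part of endothelial content in the Nos3 values was not tested.

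The other measurement concerns the locus. On GRCm38, 1040 bases of Nos3 exons (25.2%) overlap the antisense gene Gm15587, and 294 bases (7.12%) overlap Atg9b, an autophagy gene that lies on the opposite strand. SMART-Seq v4 libraries do not keep the strand, so reads in these stretches cannot be assigned to one gene or the other. Gm15587 had 5.22, 3.15 and 3.56 CPM in KO nicotine, against 2.38, 1.45 and 1.07 CPM in KO air, and 1.18, 1.76 and 2.53 CPM in WT nicotine, against 2.0, 1.65 and 3.15 CPM in WT air. Atg9b had 2.93, 1.91 and 2.43 CPM in KO nicotine, against 1.02, 1.54 and 0.908 CPM in KO air. In WT, Atg9b had 2.56, 0.838 and 1.06 CPM with nicotine, against 1.48, 0 and 0.726 CPM with air. Both partners were highest in library KO nicotine 3, as Nos3 was, with at most 57 and 32 counts in a library, and their part in the Nos3 counts was not tested.

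Nos1, the neuronal synthase, and Nos2, the inducible synthase of macrophages and inflamed muscle, were near the lower end of what was measured. Nos1 had 4 to 26 counts in a library and Nos2 14 to 54. Nos1 averaged 1.92 ± 0.48 CPM in KO nicotine and 0.960 ± 0.81 CPM in KO air, and 1.35 ± 0.70 CPM in WT nicotine and 1.06 ± 0.34 CPM in WT air (SD, n = 3 each). Its log2 fold change for nicotine in KO, 0.99 ± 0.61, had an interval of -0.32 to 2.30, which holds both no change and a large one.

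Nos2 averaged 3.19 ± 1.97 CPM in KO nicotine and 1.99 ± 0.72 CPM in KO air, and 2.15 ± 1.12 CPM in WT nicotine and 2.78 ± 1.65 CPM in WT air (SD, n = 3 each). All groups overlapped and no Nos2 comparison had an unadjusted p under 0.05. Of 12 macrophage markers, 11 had a fold change above 0 for nicotine in WT (median 0.77) and 10 in KO (median 0.18). Of all tested genes, 49.4% in WT and 51.5% in KO were above 0. The Nos2 log2 fold change was -0.36 ± 0.58 in WT, and 0.23 without WT air library 8. In KO it was 0.67 ± 0.58, and 0.14 without KO nicotine library 4. edgeR called none of these markers in either genotype. At an unadjusted p under 0.05 it gave 8 in WT (66.7%, against 9.84% of all tested genes) and 2 in KO (16.7%, against 4.58%). DESeq2 called 2 in WT, Csf1r and Mrc1. For nicotine averaged over genotypes, edgeR called none and gave 8 of the 12 at an unadjusted p under 0.05 (66.7%, against 10.9%), and DESeq2 called 2, Mrc1 and Lyve1. In WT, 8 markers had every nicotine library above every air library, as had 7.13% of all tested genes. The summed level of the markers was 494 to 613 CPM in WT nicotine and 364 to 424 CPM in WT air. It was 426 to 583 CPM in KO nicotine and 326 to 481 CPM in KO air. The part of macrophage content in the Nos2 values was not tested.

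Of the modulators of the synthases, Cav1, whose product binds and holds back endothelial nitric oxide synthase, was the most even of the 10 genes. Cav1 had 561.4, 669.1 and 641.1 CPM in KO nicotine, against 587.9, 618.4 and 567.8 CPM in KO air. It had 596.4, 550.2 and 553.5 CPM in WT nicotine, against 689.2, 575.8 and 618.4 CPM in WT air. The log2 fold change was 0.077 ± 0.12 for nicotine in KO (95% interval -0.19 to 0.34) and -0.15 ± 0.12 in WT (-0.41 to 0.11). These intervals hold changes of at most 0.41 on the log2 scale, the tightest bounds among the 10 genes. Cav1 lies between Cav2, another caveolin gene, and Met in the RefSeq gene order.

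Ddah1 and Ddah2 encode dimethylarginine dimethylaminohydrolases, which degrade asymmetric dimethylarginine, an inhibitor of the synthases. Ddah2 had the higher level per kilobase. It had 29.5, 30.9 and 26.9 CPM in WT nicotine, against 25.5, 25.3 and 25.6 CPM in WT air. Every WT nicotine library lay above every WT air library, the only such case in 40 pairs of groups over the 10 genes. Its log2 fold change there was 0.19 ± 0.22 (adjusted p = 0.804, edgeR), and 7.13% of all tested genes likewise lay wholly higher in WT nicotine.

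In KO the Ddah2 values ran the other way without separating. Ddah2 had 14.4, 23.0 and 31.3 CPM in KO nicotine, against 31.8, 25.4 and 24.5 CPM in KO air, a log2 fold change of -0.25 ± 0.22 that was 0.0048 without library KO nicotine 3. The effect in KO was -0.54 without KO nicotine library 5 and -0.12 without KO air library 1. The difference between the effects in KO and WT was -0.44 ± 0.30 (adjusted p = 0.999, edgeR), and was -0.19 without KO nicotine library 3 and -0.75 without KO nicotine library 5. Ddah1 was low, with 13 to 57 counts in a library, and had 5.22, 2.96 and 1.05 CPM in KO nicotine, against 2.64, 2.22 and 2.89 CPM in KO air. In WT it had 2.85, 3.35 and 1.47 CPM with nicotine, against 2.44, 1.57 and 2.26 CPM with air. The KO nicotine libraries alone held both its highest and its lowest value, and no Ddah1 comparison had an unadjusted p under 0.05.

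No member lay wholly apart in the other group pairs. The share of all tested genes whose groups did not overlap was 6.05% lower in WT nicotine than in WT air, 5.13% higher and 5.55% lower in KO nicotine than in KO air, 5.80% higher and 5.59% lower in KO nicotine than in WT nicotine, and 5.75% higher and 6.06% lower in KO air than in WT air.

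Soluble guanylate cyclase, the receptor for nitric oxide, is a dimer of an alpha and a beta subunit, encoded in these libraries mainly by Gucy1a3 and Gucy1b3 (now named Gucy1a1 and Gucy1b1). These genes lie next to each other on mouse chromosome 3, on the same strand, and 4 of the 10 genes are on that chromosome, with Pde5a and Ddah1. Gucy1a3, Gucy1b3, Pde5a and Prkg1 had lower means under nicotine in both genotypes. The windows of Prkg1 are not shown. For the others the 300 bases around the annotated starts are shown, for Gucy1a3 those of the first of 2 starts listed. They are RefSeq sequences of GRCm38.p6 on the gene's own strand, from 250 bases before to 50 bases after the start, at chr3:82145601-82145900 (minus strand), chr3:82074662-82074961 (minus strand) and chr3:122728908-122729207 (plus strand), and capitals mark the GC box GGGCGG.

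Gucy1a3: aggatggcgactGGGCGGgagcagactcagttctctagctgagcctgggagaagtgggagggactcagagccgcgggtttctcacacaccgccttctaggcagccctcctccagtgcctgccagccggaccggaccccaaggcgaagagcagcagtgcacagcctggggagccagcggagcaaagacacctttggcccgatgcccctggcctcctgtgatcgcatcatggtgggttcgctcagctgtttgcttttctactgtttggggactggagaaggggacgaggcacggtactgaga
Gucy1b3: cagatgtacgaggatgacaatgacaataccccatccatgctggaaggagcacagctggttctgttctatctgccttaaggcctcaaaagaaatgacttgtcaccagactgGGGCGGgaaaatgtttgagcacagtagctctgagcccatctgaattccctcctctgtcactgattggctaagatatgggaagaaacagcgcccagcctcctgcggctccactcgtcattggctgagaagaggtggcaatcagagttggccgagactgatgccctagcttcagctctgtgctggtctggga
Pde5a: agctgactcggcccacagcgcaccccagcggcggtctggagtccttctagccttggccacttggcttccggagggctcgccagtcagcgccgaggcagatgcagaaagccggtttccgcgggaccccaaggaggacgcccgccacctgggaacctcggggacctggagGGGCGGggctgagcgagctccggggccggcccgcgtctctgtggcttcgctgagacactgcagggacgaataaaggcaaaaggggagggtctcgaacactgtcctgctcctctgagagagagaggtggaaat

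Each of the 3 windows held 1 GGGCGG on the strand shown, 238 bases before the start in Gucy1a3, 140 bases before it in Gucy1b3 and 82 bases before it in Pde5a. Searched on both strands as GGGCGG or CCGCCC, this motif was in 35.7% of 32851 RefSeq promoter windows of this length. It was absent from the windows of the second Gucy1a3 start, the second Cav1 start, Nos1 and Ddah1. Both windows of Prkg1, that of Ddah2 and that of the first Cav1 start held it too, so it was not particular to the genes shown. CANNTG, the E-box core, was in all 3 windows and in 72.3% of all windows. Neither the CArG box, which serum response factor binds in smooth muscle genes, nor TGANTCA, the AP-1 site, was in any of the 11 windows of the 8 genes with an entry, against 1.63% and 7.81% of all windows. The motifs describe these letters only, and no measurement of binding belongs to the data. The GC content was 62.3% for Gucy1a3, 52.3% for Gucy1b3 and 66.3% for Pde5a, against a median of 52.7% over all windows.

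Gucy1a3 had 156, 175 and 290 CPM in KO nicotine, against 319, 258 and 295 CPM in KO air. It had 228, 192 and 170 CPM in WT nicotine, against 202, 284 and 282 CPM in WT air. KO nicotine libraries 3 and 4 lay below every KO air library, and library 5 lay among them. In WT, library 6 of the nicotine group exceeded library 8 of the air group, so the groups overlapped in both genotypes.

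The Gucy1a3 log2 fold change was -0.49 ± 0.22 for nicotine in KO (95% interval -0.96 to -0.021, unadjusted p = 0.0418, adjusted p = 0.878, edgeR) and -0.38 ± 0.22 in WT (adjusted p = 0.591, edgeR). The difference between them was -0.11 ± 0.31, with an interval of -0.77 to 0.55 that leaves effects of the same size and unequal ones both possible. The effect in KO was -0.32 without KO nicotine library 3 and -0.81 without KO nicotine library 5. Averaged over genotypes, the effect was -0.44 ± 0.15 (95% interval -0.77 to -0.10, unadjusted p = 0.0142, adjusted p = 0.376, edgeR), the lowest p of the 10 genes. It did not pass. Leaving out 1 library at a time kept it between -0.59 and -0.35, with an adjusted p of at least 0.0653.

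Gucy1b3 had 116, 149 and 220 CPM in KO nicotine, against 211, 198 and 218 CPM in KO air. It had 171, 193 and 200 CPM in WT nicotine, against 174, 274 and 237 CPM in WT air. As for Gucy1a3, KO nicotine libraries 3 and 4 were below every KO air library and library 5 was not. The log2 fold change was -0.37 ± 0.21 for nicotine in KO, -0.28 ± 0.21 in WT and -0.33 ± 0.15 averaged (unadjusted p = 0.0441, adjusted p = 0.445, edgeR), and the average was -0.23 without KO nicotine library 3. The effect in KO was -0.17 without that library and -0.66 without KO nicotine library 5, and the effect in WT was -0.13 without WT air library 9.

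The balance of the subunits, as the ratio of Gucy1a3 to Gucy1b3 counts, was 1.35, 1.17 and 1.32 in KO nicotine and 1.51, 1.31 and 1.35 in KO air. In WT it was 1.34, 0.994 and 0.853 with nicotine and 1.16, 1.04 and 1.19 with air. The ratio does not depend on library scaling, though its size depends on the lengths of the transcripts. The means were 1.28 ± 0.094 in KO nicotine, 1.39 ± 0.11 in KO air, 1.06 ± 0.25 in WT nicotine and 1.13 ± 0.082 in WT air (SD, n = 3 each). In air every KO library exceeded every WT library, and in nicotine WT library 6 lay among the KO libraries. Of all tested genes, 5.75% lay wholly higher in KO air than in WT air by CPM, and no such share was computed for ratios. Library numbers nearly follow genotype, as given below, so an effect that followed the numbering cannot be told apart from genotype. This ratio was not tested.

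**Figure D2:**
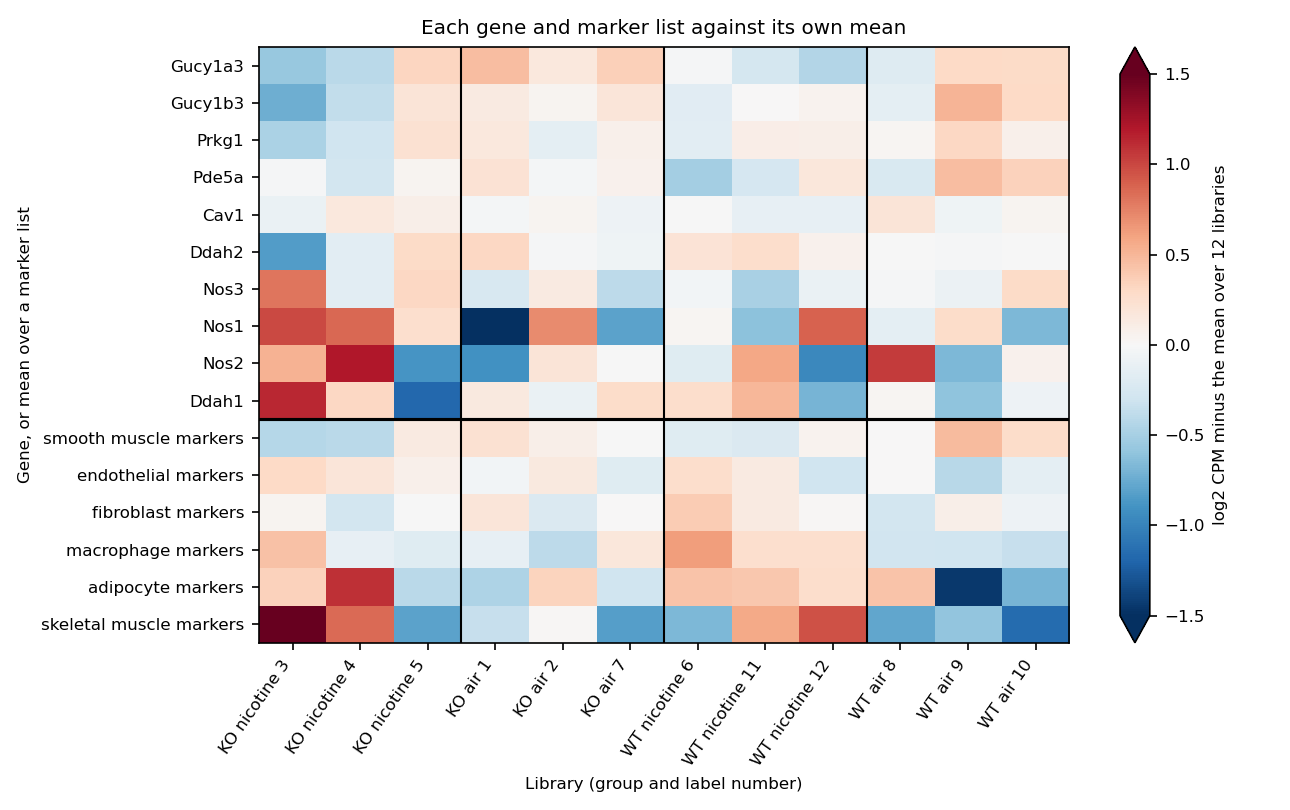
Log2 CPM minus the mean over the 12 libraries (colour, limited to 1.5 in each direction) for the 10 genes and for the mean of 6 lists of cell type markers (rows) in each library (columns, by group). Library KO nicotine 3 is low for Gucy1a3, Gucy1b3, Prkg1 and Ddah2, high for Nos3, Nos1 and Ddah1, and high for skeletal muscle markers.

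Prkg1 encodes protein kinase G type I, the kinase that carries the cyclic GMP signal in smooth muscle. Prkg1 had 53.3, 60.0 and 86.5 CPM in KO nicotine, against 82.5, 66.9 and 78.3 CPM in KO air. It had 66.3, 79.5 and 78.8 CPM in WT nicotine, against 75.5, 91.9 and 77.8 CPM in WT air. The groups overlapped in both genotypes, with log2 fold changes for nicotine of -0.19 ± 0.17 in KO, -0.13 ± 0.17 in WT and -0.16 ± 0.12 averaged (adjusted p = 0.627, edgeR). The effect in KO was -0.043 without KO nicotine library 3 and -0.42 without KO nicotine library 5, and the average was -0.084 and -0.26 without them. The effect in WT was -0.033 without WT air library 9 and -0.027 without WT nicotine library 6. The interval of the average, -0.41 to 0.096, bounds the change more closely than for the cyclase subunits.

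Pde5a encodes phosphodiesterase type 5, which degrades cyclic GMP in vascular smooth muscle and is the target of sildenafil. Pde5a had 308, 258 and 320 CPM in KO nicotine, against 361, 304 and 327 CPM in KO air. It had 220, 261 and 352 CPM in WT nicotine, against 267, 430 and 397 CPM in WT air. In WT, nicotine library 12 lay above air library 8, so the groups overlapped. The log2 fold change for nicotine was -0.16 ± 0.19 in KO (adjusted p = 0.900, edgeR) and -0.39 ± 0.20 in WT (unadjusted p = 0.0641, adjusted p = 0.537, edgeR). The effect in KO was -0.076 without KO nicotine library 4 and -0.097 without KO air library 1, and the effect in WT was -0.26 without WT air library 9 and -0.23 without WT nicotine library 6. Averaged, it was -0.28 ± 0.14 (95% interval -0.58 to 0.018, adjusted p = 0.472, edgeR).

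Gucy1a3, Gucy1b3, Prkg1 and Pde5a all had lower means with nicotine in both genotypes, and so did most smooth muscle markers. Of 16 smooth muscle markers, 15 had a fold change below 0 for nicotine in KO (median log2 fold change -0.39) and 15 in WT (median -0.44), while the median of all tested genes was 0.0095 in KO and -0.0047 in WT. edgeR, DESeq2 and limma voom called none of them in either genotype, and edgeR gave 3 in KO (18.8%, against 4.58% of all tested genes) and 7 in WT (43.8%, against 9.84%) at an unadjusted p under 0.05. For nicotine averaged over genotypes, edgeR called none and gave 12 of the 16 at an unadjusted p under 0.05 (75%, against 10.9%), and DESeq2 called 1, Lmod1. The summed marker level was 30318 to 49249 CPM in KO nicotine, 42304 to 51172 CPM in KO air, 37229 to 42967 CPM in WT nicotine and 40712 to 61033 CPM in WT air, and none of the 16 was at 0. KO nicotine libraries 3 and 4 had the lowest marker scores of all 12, with a mean log2 CPM of 9.22 and 9.25, and were also the lowest for Gucy1b3, Prkg1 and, with WT nicotine library 12, among the lowest for Gucy1a3.

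Set against the mean log2 CPM of the smooth muscle markers, Gucy1a3 lay at -1.78 ± 0.16 in KO nicotine and -1.57 ± 0.14 in KO air, and at -1.92 ± 0.33 in WT nicotine and -1.92 ± 0.12 in WT air (log2, SD, n = 3 each). Gucy1b3 lay at -2.13 ± 0.20 in KO nicotine and -2.04 ± 0.15 in KO air, and at -1.98 ± 0.13 in WT nicotine and -2.09 ± 0.10 in WT air. Prkg1 had higher means relative to the markers with nicotine, at -3.39 ± 0.079 in KO nicotine and -3.51 ± 0.16 in KO air, and at -3.31 ± 0.17 in WT nicotine and -3.56 ± 0.12 in WT air. Pde5a lay at -1.22 ± 0.26 in KO nicotine and -1.39 ± 0.099 in KO air, and at -1.44 ± 0.23 in WT nicotine and -1.42 ± 0.16 in WT air. On this scale the KO means of Gucy1a3 and Gucy1b3 stayed lower with nicotine, by less than in log2 CPM alone. In WT the Gucy1a3 means were about equal, and the Gucy1b3 mean was higher with nicotine. The Prkg1 mean was higher with nicotine in both genotypes. For Pde5a it was higher in KO, and the WT means were nearly equal. The part of smooth muscle content was not tested.

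Of 14 adipocyte markers, 14 had a fold change above 0 for nicotine in KO (median 0.63) and 13 in WT (median 0.72). None was called by edgeR, DESeq2 or limma voom. At an unadjusted p under 0.05 edgeR gave 0 in KO (against 4.58% of all tested genes) and 2 in WT (14.3%, against 9.84%). Their summed level was 3899 to 10421 CPM in KO nicotine, 3595 to 6742 CPM in KO air, 5845 to 6820 CPM in WT nicotine and 2002 to 6671 CPM in WT air, and none was at 0. When the adipocyte score entered the fit as a covariate, the averaged nicotine effect was -0.19 for Gucy1a3, -0.081 for Gucy1b3 and 0.014 for Prkg1, and the effect in WT was -0.066 for Pde5a. The Nos3 effect in KO was 0.53 with that covariate. Over all alternatives, the Gucy1a3 effect ran from -0.50 to -0.032 in WT and from -0.81 to -0.32 in KO. The adipocyte score, a mean log2 CPM, was itself higher with nicotine. Its group means were 8.01 in KO nicotine and 7.52 in KO air, and 8.03 in WT nicotine and 7.09 in WT air. The covariate thus overlaps with exposure, and the part of fat content was not tested.

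**Figure D3:**
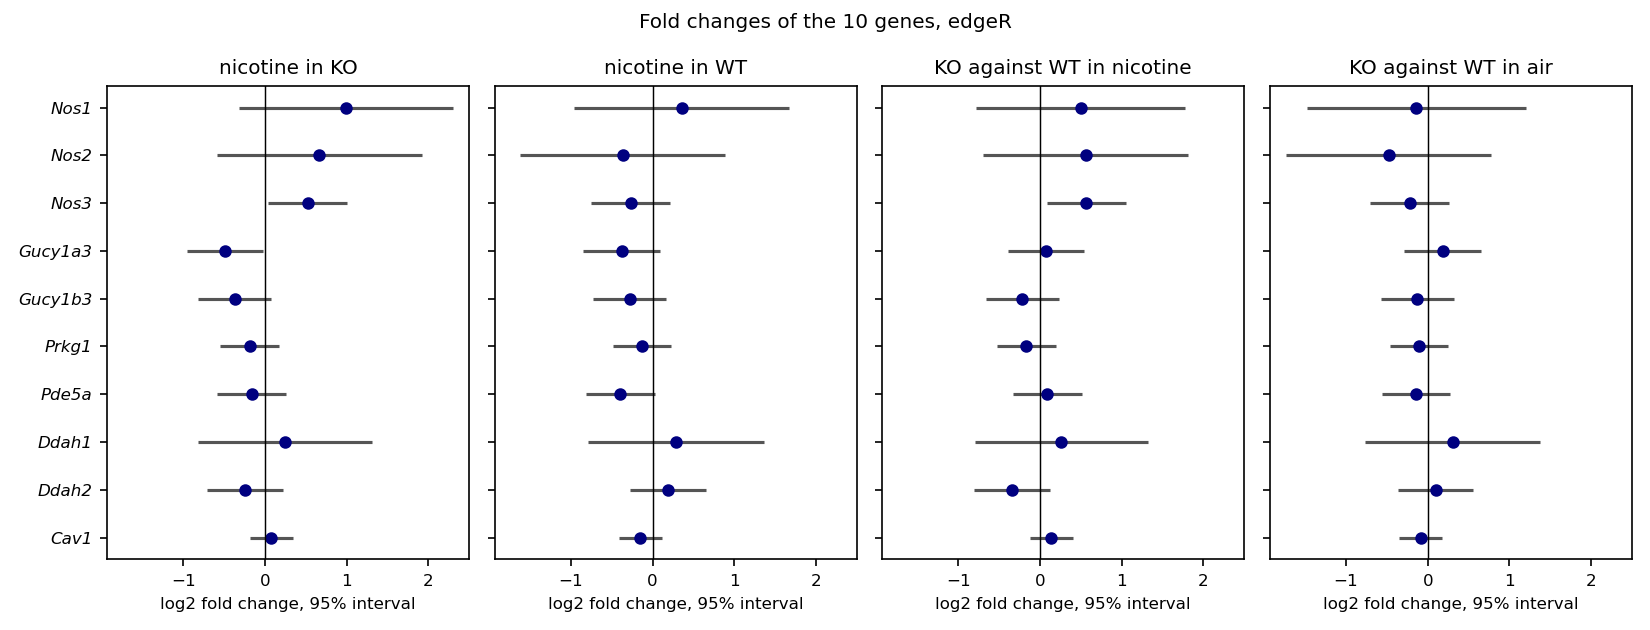
Log2 fold changes (points, x axis) with 95% intervals (lines) from edgeR for the 10 genes (rows) in 4 comparisons (panels). Intervals of Nos3 and Gucy1a3 for nicotine in KO and of Nos3 for KO against WT in nicotine leave out 0 before adjustment; all others span it.

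Between genotypes, the 10 genes gave small or poorly resolved differences. KO against WT in air had fold changes from -0.48 for Nos2 to 0.31 for Ddah1 on the log2 scale, and the lowest unadjusted p was 0.340, for Nos3. Averaged over exposures, they ran from -0.17 for Gucy1b3 to 0.28 for Ddah1, with a lowest unadjusted p of 0.260. For the best measured gene, Cav1, the averaged genotype difference was 0.026 ± 0.086 with an interval of -0.16 to 0.21. In the authors' deposited table of nicotine against air, which gives no genotype contrast, none of the 10 genes had an adjusted p under 0.05 in either genotype, where 7 genes in KO and 123 in WT did. That deposited table gives Gucy1a3 a log2 fold change of -0.49 in KO and -0.38 in WT, and Nos3 0.52 in KO and -0.27 in WT.

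A wider list of 58 pathway genes, of which 56 were tested, gave no call by edgeR in any comparison. At an unadjusted p under 0.05 there were 3 for nicotine in KO, 9 for nicotine in WT, 10 for nicotine averaged, 6 for KO against WT in nicotine, 4 in air, 5 for KO averaged and 1 for the interaction. As shares, set against those of all tested genes, these were 5.36% against 4.58% for nicotine in KO, 16.1% against 9.84% for nicotine in WT, 17.9% against 10.9% for nicotine averaged and 10.7% against 8.34% for KO against WT in nicotine. They were 7.14% against 4.36% for KO against WT in air, 8.93% against 8.41% for KO averaged and 1.79% against 4.43% for the interaction. limma voom called none, and DESeq2 called 2, both for KO averaged.

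**Figure D4:**
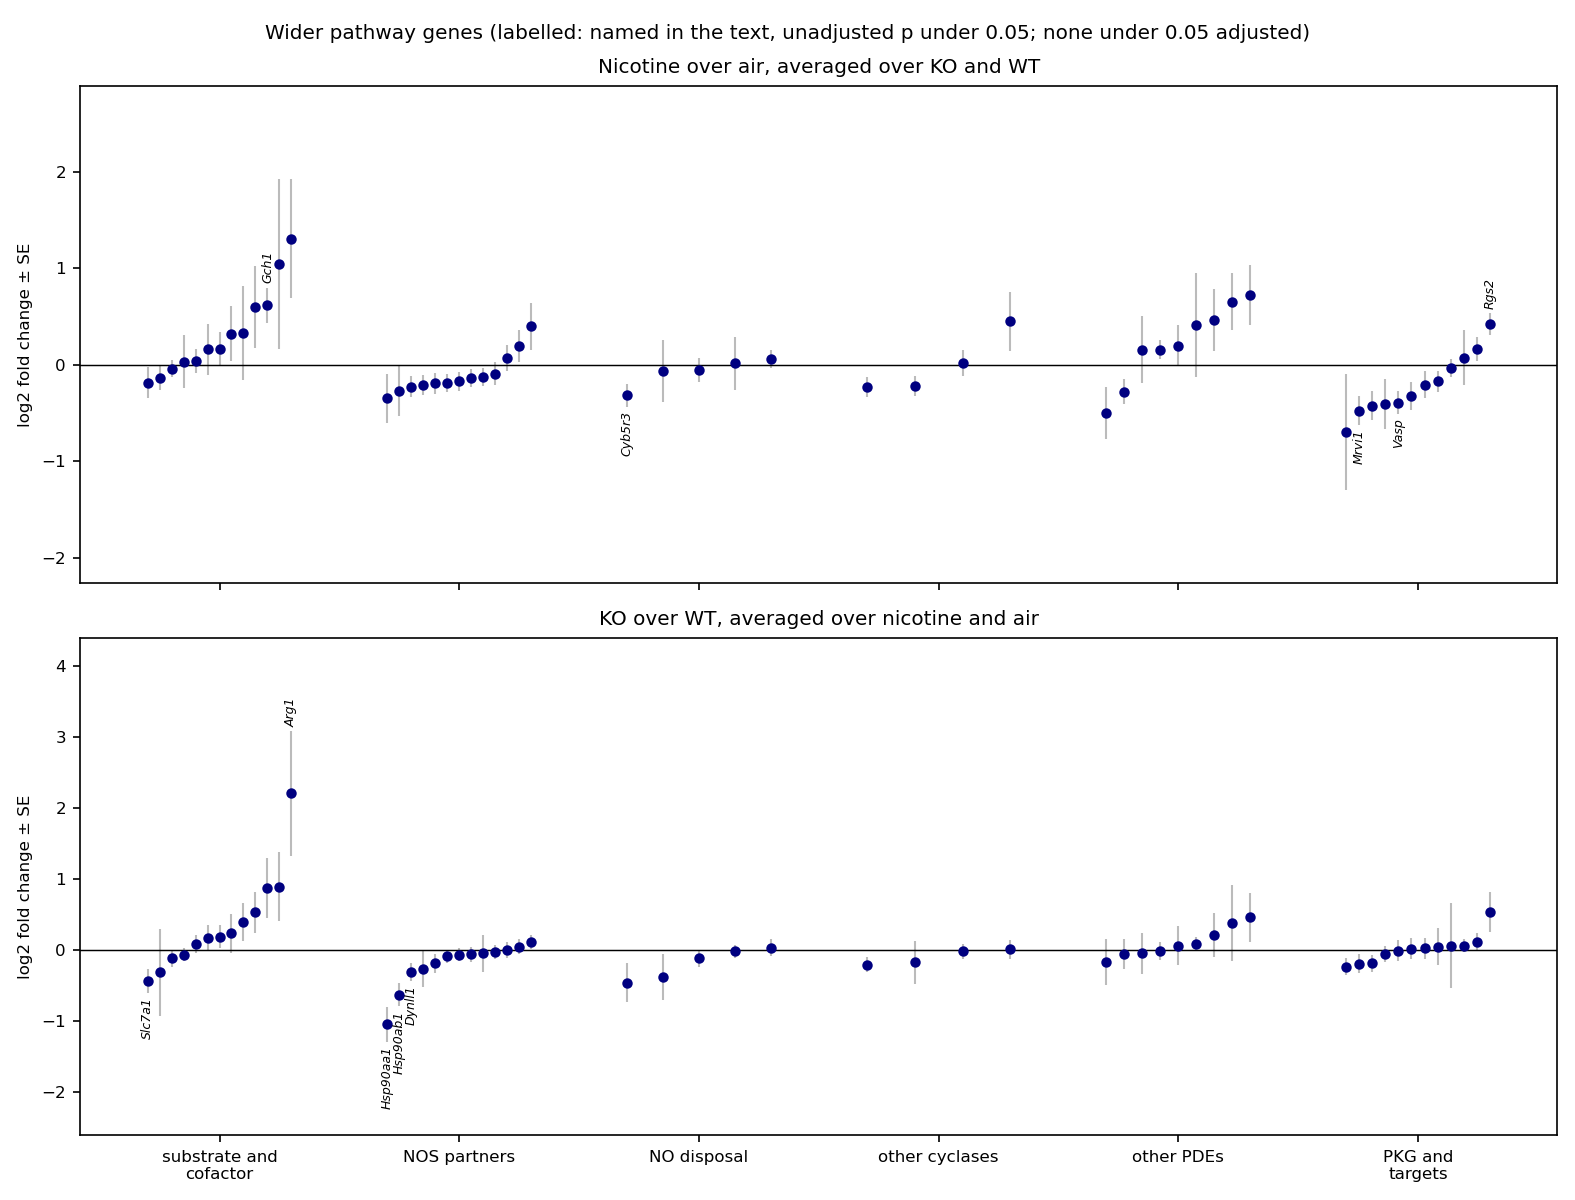
Log2 fold changes with their SE (y axis) for 56 wider pathway genes in 6 lists (x axis), for nicotine over air averaged over KO and WT (upper panel) and KO over WT averaged over exposures (lower panel). Rgs2 and Gch1 lie above 0 and Mrvi1, Vasp and Cyb5r3 below it in the upper panel, and Hsp90aa1 and Hsp90ab1 are the lowest 2 in the lower panel; none passed the edgeR threshold.

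The 2 genes called by DESeq2 encode the cytosolic HSP90 chaperones, which bind endothelial nitric oxide synthase and soluble guanylate cyclase. Hsp90aa1 had 701, 367 and 413 CPM in KO nicotine and 383, 420 and 349 CPM in KO air, against 554, 1100.0 and 1483 CPM in WT nicotine and 1010, 729 and 579 CPM in WT air. Its averaged genotype log2 fold change was -1.05 ± 0.25 (adjusted p = 0.268, edgeR), and that of Hsp90ab1 was -0.63 ± 0.16 (adjusted p = 0.333, edgeR). In air all 3 KO libraries lay below all 3 WT libraries for both, and in nicotine KO library 3 was above WT library 6. Of the 56 wider genes tested, 6 lay wholly lower in KO air than in WT air, against 6.06% of all tested genes. Library numbers 1 to 5 and 7 are KO and 6 and 8 to 12 are WT, so an effect that followed the numbering cannot be told apart from genotype. Dynll1, which encodes a light chain bound by the neuronal synthase, had 236 ± 21.2 CPM in KO air and 319 ± 31.0 CPM in WT air (SD, n = 3 each, adjusted p = 0.995, edgeR).

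Of 12 genes listed for protein kinase G, its targets and cyclic nucleotide export (Abcc4 and Abcc5), 10 had a fold change below 0 for nicotine in KO and 9 in WT. Rgs2, which encodes a regulator of G protein signalling that protein kinase G activates to damp contraction, lay above 0 in both. Rgs2 had 51.4, 74.9 and 77.7 CPM in KO nicotine, against 60.1, 65.5 and 51.6 CPM in KO air. It had 83.6, 99.4 and 95.3 CPM in WT nicotine, against 69.2, 54.4 and 55.7 CPM in WT air. All WT nicotine libraries lay above all WT air libraries, a log2 fold change of 0.64 ± 0.16 (adjusted p = 0.261, edgeR), and the difference between the effects in KO and WT was -0.43 ± 0.23 (adjusted p = 0.999, edgeR). Of the 56 wider genes tested, 3 lay wholly higher in WT nicotine than in WT air, against 7.13% of all tested genes.

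Mrvi1, whose product links protein kinase G to the inositol trisphosphate receptor, had 356 ± 89.8 CPM in KO nicotine and 455 ± 49.9 CPM in KO air, and 329 ± 23.2 CPM in WT nicotine and 499 ± 142 CPM in WT air (SD, n = 3 each). Its averaged nicotine log2 fold change was -0.48 ± 0.15 (adjusted p = 0.336, edgeR). Vasp, an actin regulator phosphorylated by protein kinase G, had an averaged fold change of -0.39 ± 0.12 (adjusted p = 0.336, edgeR). Both had lower means with nicotine, as most smooth muscle markers did. Ppp1r12a, which encodes a myosin phosphatase subunit, had 848 ± 156 CPM in KO nicotine and 986 ± 68.4 CPM in KO air, and 975 ± 224 CPM in WT nicotine and 1117 ± 176 CPM in WT air.

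Of 13 tested genes of substrate and cofactor supply, 12 had a fold change above 0 for nicotine in KO and 5 in WT, with medians of 0.36 and -0.085 and none called. Gch1 encodes GTP cyclohydrolase 1, the first enzyme of tetrahydrobiopterin synthesis, a cofactor without which the synthases are uncoupled. Gch1 had 6.50, 5.24 and 4.13 CPM in KO nicotine, against 3.49, 3.76 and 4.62 CPM in KO air. It had 5.80, 4.78 and 5.55 CPM in WT nicotine, against 2.87, 3.30 and 2.98 CPM in WT air. The WT groups were apart, as were those of 7.13% of all tested genes in that direction, and the KO groups overlapped. The averaged log2 fold change was 0.62 ± 0.18 (adjusted p = 0.332, edgeR).

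Arg1 encodes arginase 1, which competes with the synthases for arginine. Arg1 had 32.1, 3.91 and 1.21 CPM in KO nicotine, against 0.590, 0.419 and 1.88 CPM in WT nicotine, a log2 fold change of 3.65 ± 1.26 (adjusted p = 0.481, edgeR). Library KO nicotine 3 held the one high value, and its source was not tested. Slc7a1, a cationic amino acid transporter gene, averaged 45.3 ± 13.1 CPM in KO nicotine and 63.8 ± 12.3 CPM in WT nicotine, and 42.0 ± 12.4 CPM in KO air and 54.9 ± 8.65 CPM in WT air (SD, n = 3 each). Slc7a2, a related transporter gene, averaged 77.8 ± 21.1 CPM in KO nicotine and 75.8 ± 10.1 CPM in KO air, and 58.3 ± 5.97 CPM in WT nicotine and 77.7 ± 22.9 CPM in WT air (log2 fold change in WT -0.41 ± 0.23, adjusted p = 0.573, edgeR). Qdpr, which encodes the enzyme that recycles the cofactor, had 15.9 ± 2.79 CPM in KO nicotine and 13.2 ± 0.50 CPM in KO air, and 12.8 ± 1.67 CPM in WT nicotine and 14.6 ± 1.88 CPM in WT air.

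Of 9 other phosphodiesterase genes, 6 had a fold change above 0 for nicotine in KO and 6 in WT. Pde3a encodes a phosphodiesterase that cyclic GMP inhibits, and had 571 ± 151 CPM in KO nicotine and 669 ± 85.0 CPM in KO air, and 553 ± 17.7 CPM in WT nicotine and 698 ± 103 CPM in WT air (SD, n = 3 each). Pde1a, a calcium-activated phosphodiesterase, had 37.9, 45.8 and 37.3 CPM in KO nicotine, all above 34.5, 32.6 and 29.8 CPM in KO air (log2 fold change 0.32 ± 0.14, adjusted p = 0.878, edgeR). Of the 56 wider genes tested, 2 lay wholly higher in KO nicotine than in KO air, against 5.13% of all tested genes. Npr1, the natriuretic peptide receptor that makes cyclic GMP at the membrane, had 223 ± 40.1 CPM in KO nicotine and 240.5 ± 16.7 CPM in KO air, and 239 ± 26.6 CPM in WT nicotine and 300 ± 37.3 CPM in WT air.

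Among 5 genes that remove nitric oxide, 4 had a fold change below 0 for nicotine in KO and 1 in WT. Cyb5r3, whose product reduces the alpha globin haem at endothelial junctions, had 284 ± 49.5 CPM in KO nicotine and 394 ± 57.2 CPM in KO air (SD, n = 3 each, log2 fold change -0.48 ± 0.17, adjusted p = 0.878, edgeR). Hba-a2, an alpha globin gene, ran from 1202 to 5726 CPM within WT nicotine alone. Blood carries this transcript, and its near-identical copy Hba-a1 makes the split of reads between the copies uncertain. Cav3, the muscle caveolin gene, had 9.60 ± 5.19 CPM in KO nicotine and 7.10 ± 0.78 CPM in KO air, and 6.06 ± 1.18 CPM in WT nicotine and 12.0 ± 3.10 CPM in WT air (interaction 1.42 ± 0.52, adjusted p = 0.999, edgeR).

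The genes whose pattern over the 12 libraries was most like that of Nos3, by the root mean square difference of centred log2 CPM, were Fgd5 at 0.134, Slc9a3r2 at 0.171, Zfp329 at 0.174, Nsun5 at 0.186 and Atg16l2 at 0.191, against a median of 0.438 over all tested genes. For Prkg1 they included Abcc9 at 0.0751, Myh10 at 0.0770, Dlg5 at 0.0833 and Sema3c at 0.0850, against a median of 0.352. The measure uses the same 12 libraries for each pair and therefore shares their tissue content.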

How the data were processed

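RNA was measured in 12 bulk libraries of mouse thoracic aorta, 3 in each of 4 groups taken from the sample labels. RNA was isolated with the RNeasy Plus kit and made into SMART-Seq v4 libraries, per the labels' protocols; the kit keeps no strand and no molecular identifiers. The authors deposited raw read counts per gene symbol, made with HTSeq on mm9, per the submitters' processing notes. The sources used here do not give the aligner, annotation, counting mode or versions. The authors also deposited, for nicotine against air in each genotype, log2 fold changes with standard errors, a test score and p-values, per the file headers; these were used for comparison only.

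Of 27933 genes, 14621 passed edgeR's filterByExpr. Counts were TMM-scaled (normalisation factors 0.962 to 1.05) and fitted in edgeR 4.0.16 with the robust quasi-likelihood model, 4 group means and 8 residual degrees of freedom; the biological coefficient of variation was 0.233. Benjamini-Hochberg adjusted p under 0.05 over all tested genes was called. CPM are TMM-scaled, and log2 CPM used a prior count of 2. Standard errors were obtained by dividing the absolute log2 fold change by the root of its F statistic. The 10 genes, the wider lists and the marker lists were chosen with earlier results of these data known, so no list is independent support. Genes beyond the 10 were named by a rule: per comparison up to 3 wider pathway genes of lowest unadjusted p, the gene of highest mean CPM per list (not corrected for length), the 3 highest markers of the cell types described, and the 5 genes most like Nos3 and Prkg1; 1 gene that the rule names is not reported here. Gene lengths and exon overlaps came from the GENCODE annotation of GRCm38, and promoter windows and gene order from RefSeq; all 10 genes matched the annotation and 8 had a promoter entry. No coordinates of the authors' build were used.

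Alternatives were DESeq2 1.42.0, limma voom (limma 3.58.1), RLE size factors, no filter on low counts, an adipocyte score covariate, only the 2 groups compared, and leaving out each library. The procedure was tested on simulated counts. R 4.3.3, Python 3.11.15, pandas 2.3.3 and matplotlib 3.10.9 were used.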

Additional observations from a re-analysis of the deposited data

How the results depend on the processing

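None of the 10 genes was called under any alternative run. The number of all tested genes called did move. It was 3 for nicotine in WT (100 with DESeq2, 21 with no filter on low counts, 7 with RLE size factors, 0 with the adipocyte covariate and 0 with only the 2 groups compared) and 1 for KO against WT in nicotine (76, 7 and 6 with the same first 3, and 9 with the covariate). For comparisons with 0 calls, DESeq2 gave 91 for nicotine averaged, 116 for KO averaged, 12 for KO against WT in air and 4 for the interaction. No filter gave 6 for nicotine averaged, 12 for KO averaged and 1 for the interaction, the covariate gave 6 for KO averaged, and only the 2 groups gave 2 for KO against WT in air. Leaving out 1 library gave 0 to 34 for nicotine in WT, 0 to 38 for nicotine averaged (both highest without WT air 8), 0 to 4 for KO against WT in nicotine, and 0 to 1 for KO averaged and for the interaction. The cause was not tested.

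Fold changes of the 10 genes that changed sign were all ones whose main interval held 0. With the adipocyte covariate these were, for nicotine in KO, Ddah1 -0.023 and Nos2 -0.016; in WT, Ddah1 -0.10, Gucy1b3 0.064 and Prkg1 0.11; averaged, Ddah1 -0.060, Ddah2 0.065, Nos2 -0.62 and Prkg1 0.014; for KO in air, Gucy1b3 0.045 and Pde5a 0.023; for KO averaged, Nos2 -0.20 and Pde5a 0.052; and for the interaction, Ddah1 0.075. limma voom gave Ddah1 -0.066 for nicotine in KO. Leaving out 1 library at a time gave ranges that crossed 0. For nicotine in KO they were Ddah1 -0.37 to 0.67 and Ddah2 -0.54 to 0.0048. For nicotine in WT they were Nos1 -0.12 to 0.67 and Nos2 -0.83 to 0.23. For nicotine averaged they were Cav1 -0.065 to 0.016, Ddah1 -0.040 to 0.48, Ddah2 -0.17 to 0.098, Nos2 -0.11 to 0.45 and Nos3 -0.0094 to 0.23. For KO against WT in nicotine they were Ddah1 -0.35 to 0.67, Gucy1a3 -0.26 to 0.25 and Pde5a -0.067 to 0.29. For KO against WT in air they were Cav1 -0.15 to 0.0031, Ddah2 -0.022 to 0.17, Gucy1b3 -0.27 to 0.023, Nos1 -1.06 to 0.27 and Nos2 -0.80 to 0.11. For KO averaged they were Cav1 -0.0037 to 0.067, Ddah1 -0.025 to 0.49, Ddah2 -0.27 to 0.0022, Gucy1a3 -0.037 to 0.21, Nos1 -0.28 to 0.43, Nos2 -0.22 to 0.33 and Pde5a -0.11 to 0.079. For the interaction they were Ddah1 -0.66 to 0.36, Gucy1a3 -0.45 to 0.064, Gucy1b3 -0.39 to 0.11 and Prkg1 -0.31 to 0.083. 
No paired analysis was possible because the groups share no library number. Nos1, Nos2 and Ddah1, with 4 to 57 counts in a library, had intervals that span more than a doubling, and how much of that is counting error was not tested. The scalings compared shifted the median of all genes by under 0.02 (log2).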

Other observations

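Library KO nicotine 3 held an extreme value for 7 of the 10 genes. It was the lowest of all 12 libraries for Gucy1a3, Gucy1b3, Prkg1 and Ddah2 (4 genes) and the highest for Nos3, Nos1 and Ddah1 (3 genes). WT air library 9, with the highest smooth muscle score of the 12 (mean log2 CPM 10.1), was the highest for 3 genes, Gucy1b3, Pde5a and Prkg1. KO air libraries 2 and 7 and WT air library 10 held no extreme value.

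The lowest adjusted p of any of the 10 genes over all alternatives was for the averaged nicotine effect on Gucy1a3, with a value of 0.0653 (edgeR) when KO nicotine library 5 was left out, where the log2 fold change was -0.59.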
